A study of Mus musculus with 7 samples.

Results

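Barcodes carrying 2 productive immunoglobulin heavy chains were examined in single-cell B cell receptor libraries of mouse lymph nodes. A barcode is the droplet tag that stands for a cell, and it was taken when exactly 2 productive contigs of its own were assigned to the IGH locus. The rule held for 765 of the 18146 barcodes with a heavy chain (4.22%), and the other 17381 carried 1 heavy chain. The 6 libraries used for comparison came from deep cervical (dCLN), superficial cervical (sCLN) and inguinal (iLN) lymph nodes of female WT and 5xFAD mice aged 10 to 11 months. The labels give no treatment, and nodes were taken after perfusion with PBS and digested with Liberase TL and DNase I. 5xFAD is a transgenic mouse model of Alzheimer's disease, and the labels give no promoter or strain. Each node and genotype had 1 library, made from hashtagged cells combined into composite samples, so the animals behind a barcode were not resolved here. A further library mixed all 3 nodes and both genotypes and entered no comparison of nodes or genotypes.

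A B cell assembles its heavy chain from V, D and J segments and its light chain from V and J segments of the kappa or lambda locus. Once 1 allele gives a functional heavy chain, rearrangement of the other allele is normally stopped, a rule called allelic exclusion, so most B cells show 1 heavy and 1 light chain. Light chains are excluded less strictly, and a minority of B cells keep a pair of them. The junction, which spans the joined segment ends and any bases added between them, is so variable that it serves as a tag of the rearrangement. IgM and IgD are made by splicing of the same transcript, while IgG and IgA are made after class switching. A second heavy chain on a barcode can also be read from a droplet with 2 cells or from free RNA, and which of these a barcode here reflects was not tested.

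The labelled cell type is immune cells, and every contig of the 6 libraries was a productive immunoglobulin contig, with 0 T cell receptor contigs. The libraries were made for B cell receptors, so this 0 cannot show whether T cells were present. The libraries held 28036 to 99221 heavy chain UMIs, where a UMI counts 1 captured RNA molecule. No barcode had more than 2 heavy or more than 2 light chains, and what removed such barcodes is not given in the sources used here. In all, 225 of 19824 distinct cell barcodes occurred in more than 1 of the 6 libraries. They made up 2.35% of the barcodes with 2 heavy chains and 2.28% of those with 1. None of these repeats had a heavy junction in common.

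The heavy chain pair found on the most barcodes occurred on 3 barcodes of the 5xFAD sCLN library and shows how distinct the chains of a pair were. Capitals mark the bases between the V-encoded and the J-encoded ends of the junction, read from the V end, and the light chain found on all 3 barcodes is the IGKV10-96 chain.
IGHV1-64 with IGHJ1: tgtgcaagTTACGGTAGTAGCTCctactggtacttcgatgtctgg
IGHV1-75 with IGHJ1: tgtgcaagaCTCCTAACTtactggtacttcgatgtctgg
IGKV10-96 with IGKJ1: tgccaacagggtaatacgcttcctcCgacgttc
IGKV4-53 with IGKJ2: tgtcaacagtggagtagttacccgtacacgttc
The IGHV1-64 chain had 13, 7 and 10 UMIs on the 3 barcodes, and the IGHV1-75 chain had 6, 10 and 10. Both chains were IgM on all 3 barcodes, and the IGKV4-53 chain was on 1 of them. Neither heavy junction was on any barcode with 1 heavy chain in that library. Both V genes lie in the heavy chain locus on the minus strand of chromosome 12, at chr12:115507545-115508031 for IGHV1-64 and chr12:115833950-115834418 for IGHV1-75 (GRCm38, GENCODE annotation).

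In 3 of the 765 barcodes both contigs had the same junction, V gene and J gene, so that they show 1 rearrangement and not 2. These are printed because they mark the barcodes in which the rule counted 1 chain as a pair.
WT iLN, IGHV6-3 with IGHJ4: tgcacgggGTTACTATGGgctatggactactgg
5xFAD iLN, IGHV8-12 with IGHJ1: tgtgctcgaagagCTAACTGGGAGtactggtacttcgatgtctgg
WT dCLN, IGHV3-6 with IGHJ2: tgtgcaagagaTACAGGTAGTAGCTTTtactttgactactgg
The greater contig, meaning the one with more UMIs, had 15, 14 and 8 UMIs, and the lesser contig had 4, 3 and 1. The lesser contig had no constant region call in the WT iLN and 5xFAD iLN barcodes and was IgM in the WT dCLN barcode. Each of the 3 barcodes had 1 light chain.

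Among the 88 pairs with junctions of equal length, the pair next in likeness was far from identical. It came from a WT sCLN barcode and differed at 7 of 36 bases.
IGHV1-26 with IGHJ4: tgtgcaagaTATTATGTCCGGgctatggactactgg
IGHV1-82 with IGHJ4: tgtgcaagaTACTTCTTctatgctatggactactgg
The first chain had 9 UMIs and the second 8, both were IgM, and the barcode had 1 light chain, from IGKV6-23. A further WT sCLN pair, IGHV1-74 with IGHV3-6, differed at 8 of 39 bases. No pair had between 0 and 7 mismatches, so the 3 pairs above stood apart from the rest.

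Barcodes with 2 heavy chains were most frequent in the deep cervical nodes and least frequent in the inguinal nodes. They numbered 201 in WT dCLN, which is 5.62% of the barcodes with a heavy chain (exact 95% interval 4.89 to 6.43). In 5xFAD dCLN there were 217, or 5.27% (4.60 to 5.99). The superficial cervical libraries had 130 in WT, or 3.64% (3.05 to 4.31), and 98 in 5xFAD, or 3.99% (3.25 to 4.85). The inguinal libraries had 63 in WT, or 2.78% (2.15 to 3.55), and 56 in 5xFAD, or 2.59% (1.96 to 3.35). The dCLN intervals did not overlap those of the other nodes, except that the lower bound of 5xFAD dCLN, 4.60, lay below the upper bound of 5xFAD sCLN, 4.85. These intervals are Clopper-Pearson intervals and cover counting error alone, and with 1 library per node and genotype the node difference had no test.

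**Figure D1:**
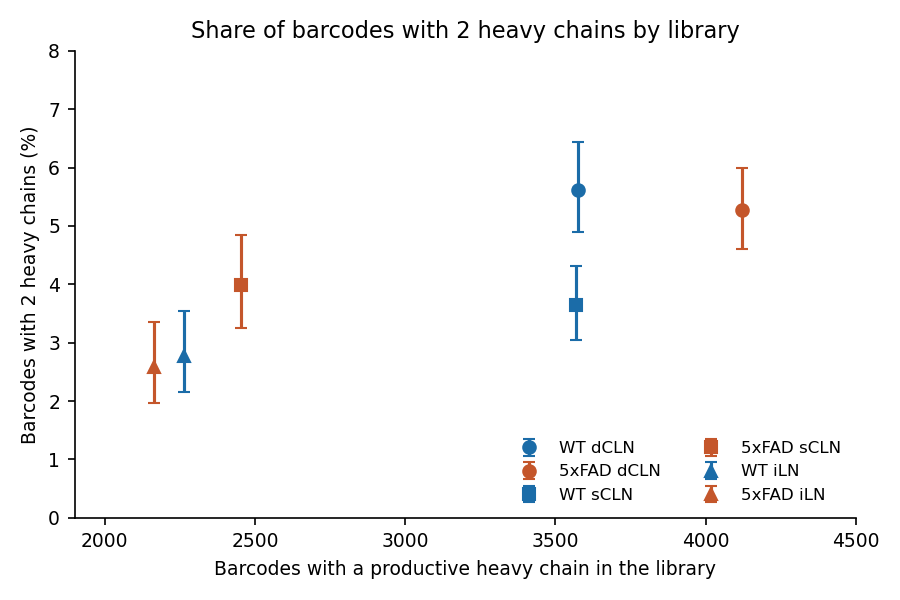
Percent of heavy chain barcodes that carry 2 heavy chains (vertical axis) against the number of barcodes with a heavy chain (horizontal axis) in the 6 libraries, with exact 95% intervals as bars, WT in blue and 5xFAD in orange. The dCLN libraries lie at 5.62% and 5.27% and the iLN libraries at 2.78% and 2.59%.

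Genotype did not order the libraries. The share in 5xFAD minus that in WT was -0.357 percentage points in dCLN, 0.352 in sCLN and -0.195 in iLN, with a mean of -0.0665 ± 0.371 (SD, n = 3 nodes). The exact two-sided sign-flip test gave p = 0.75, adjusted to 1 over 3 measures, and 3 nodes cannot give less than 0.25. The share of these barcodes with 2 light chains differed between genotypes by 9.74, 4.71 and -12.1 points in the same order of nodes (exact p = 1). The median share of heavy UMIs in the lesser chain differed by 1.67, -1.28 and -1.42 points (exact p = 1).

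Libraries with more heavy chain barcodes tended to hold a larger share with 2 heavy chains. Over the 6 libraries Pearson's r was 0.814 (exact permutation p = 0.0806, adjusted 0.138) and Spearman's rho was 0.886 (exact permutation p = 0.0333, adjusted 0.0666 over 2 relations), so neither passed 0.05 after adjustment. Without 5xFAD dCLN and 5xFAD iLN, which lie farthest from the median number, r was 0.648 over 4 libraries. At almost the same number of barcodes, 3575 in WT dCLN and 3570 in WT sCLN, the shares were 5.62% and 3.64%. The share also ran against the median reads per UMI of the library, with r = -0.686 (exact permutation p = 0.138, adjusted 0.138) and rho = -0.771 (exact permutation p = 0.103, adjusted 0.103). Without WT dCLN and WT iLN this r was -0.387. WT dCLN and WT sCLN were also close in median reads per UMI of single heavy chains, 46 and 47. Over the libraries as a set, node, barcode number and read depth largely moved together. With 1 library per node and genotype they cannot be told apart.

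Both heavy chains were usually well covered. The greater chain had a median of 12 UMIs in WT dCLN, 17 in 5xFAD dCLN, 14 in WT sCLN, 17 in 5xFAD sCLN, and 18 in each iLN library. The lesser chain had medians of 6, 9, 7, 7, 7 and 7 UMIs in the same order of libraries. The single heavy chain of the other barcodes had medians of 9, 13, 11, 12, 11 and 11 UMIs, between the greater and the lesser chain in every library. That the greater chain exceeds the lesser follows from how they are named, so these medians have no test.

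The lesser chain held a median of 33.3% of a barcode's heavy UMIs, with library medians from 27.1% in 5xFAD iLN to 35.0% in 5xFAD dCLN. It held 20% or more in 665 of 765 barcodes (86.9%) and 40% or more in 242, and the chains had equal UMIs in 36. In 8 barcodes it held under 10%. It rested on 1 UMI in 15 barcodes, 11 of them in WT dCLN, and on 2 or fewer in 47, of which 25 were in WT dCLN. It had 5 or more UMIs in 587. Pairs in which 1 chain is barely covered were thus few and gathered in the WT dCLN library, which had the lowest medians for both chains.

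**Figure D2:**
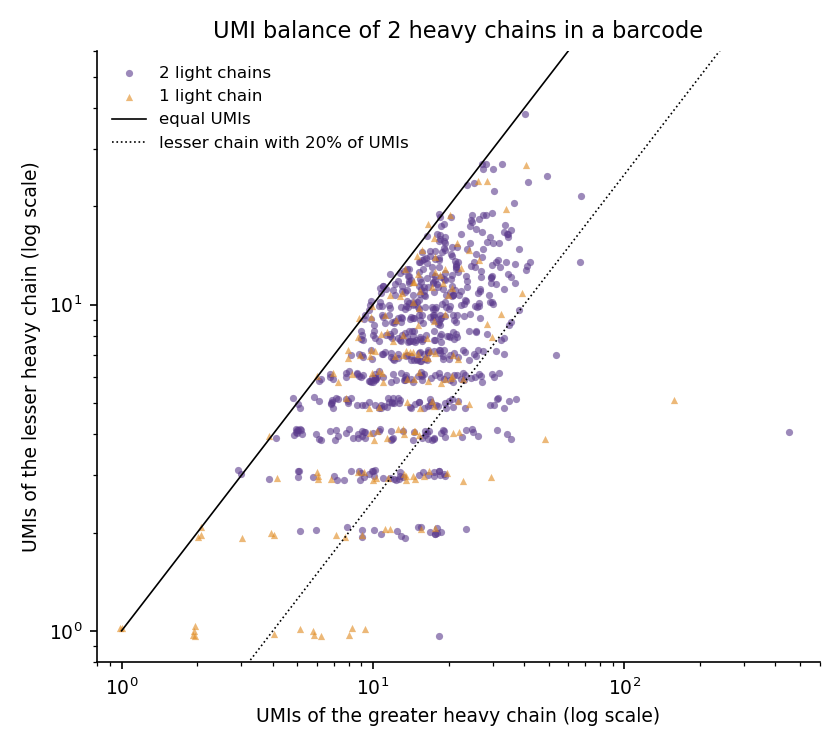
UMIs of the lesser heavy chain (vertical, log scale) against those of the greater (horizontal, log scale) for each of the 765 barcodes, moved slightly at random so that points do not hide each other. Circles are barcodes with 2 light chains, triangles those with 1, the solid line marks equal UMIs, and most points lie between it and the dotted line at 20%.

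Heavy chains of very high UMI number, which plasma cells can give, were rare in these pairs. A greater chain of 100 or more UMIs was found on 2 barcodes (0.261%), both in WT iLN, beside 68 of the barcodes with 1 heavy chain (0.391%). The higher of them had 470 UMIs for an IgM chain of IGHV1-26 beside 4 UMIs for an IgM chain of IGHV14-3, and its 2 light chains had 20 and 8 UMIs. Its greater junction is shown as the most unequal pair.
IGHV1-26 with IGHJ2, 470 UMIs: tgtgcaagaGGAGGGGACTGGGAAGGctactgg
IGHV14-3 with IGHJ1, 4 UMIs: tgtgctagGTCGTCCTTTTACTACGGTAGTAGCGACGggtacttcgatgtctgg
In the other libraries the barcode with the most heavy UMIs was more even. It had 36 and 17 UMIs in WT dCLN (IGHV1-66 and IGHV1-77), 41 and 26 in 5xFAD dCLN (IGHV1-54 and IGHV4-1) and 69 and 21 in WT sCLN (IGHV1-85 and IGHV1-58). It had 52 and 7 in 5xFAD sCLN (IGHV5-17 and IGHV1-72) and 69 and 13 in 5xFAD iLN (IGHV14-3 and IGHV1-12).

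Barcodes with 2 heavy chains mostly carried 2 light chains as well. Of the 765 barcodes with 2 heavy chains, 610 had 2 light chains, 155 had 1 and 0 had none. By counting error alone this 0 allows up to 0.392%. Whether a filter removed barcodes with 2 heavy chains and no light chain is not given in the sources used here. Of the barcodes with 1 heavy chain, 1434 had 2 light chains, 15763 had 1 and 184 had none. The share with 2 light chains was 74.1% beside 9.60% in WT dCLN, 83.9% beside 8.22% in 5xFAD dCLN, and 76.9% beside 7.79% in WT sCLN. It was 81.6% beside 7.60% in 5xFAD sCLN, 88.9% beside 8.36% in WT iLN, and 76.8% beside 7.50% in 5xFAD iLN. The classes did not overlap, the lowest value with 2 heavy chains being 74.1% and the highest with 1 being 9.60%. The mean difference was 72.2 ± 5.68 percentage points (SD, n = 6 libraries, higher in 6 of 6; exact sign-flip p = 0.0312). This p is the smallest that 6 libraries can give, and adjusted over 12 measures it was 0.0625, so no measure of this family was called at 0.05.

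**Figure D3:**
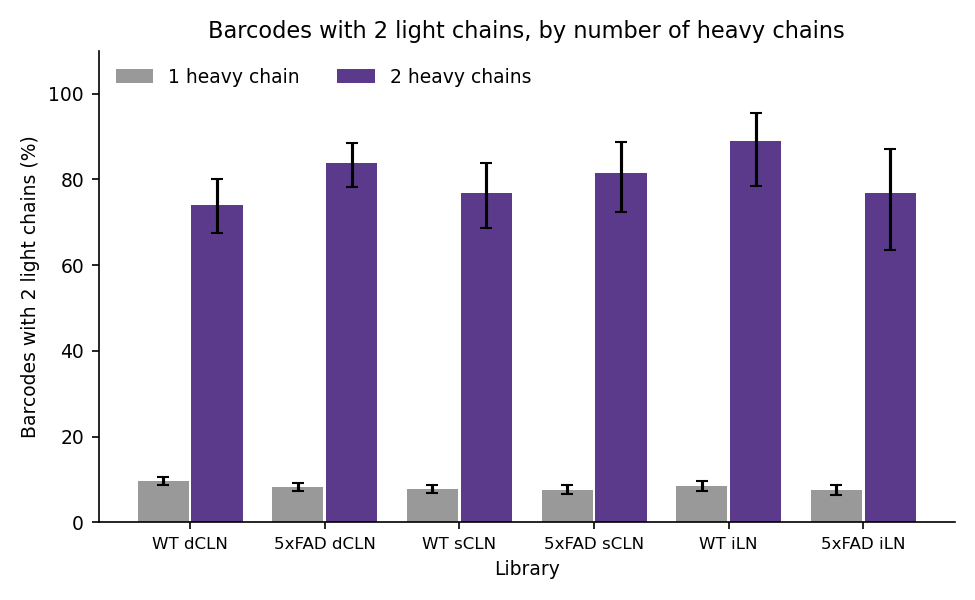
Percent of barcodes with 2 light chains (vertical axis) in each library, for barcodes with 1 heavy chain (grey) and with 2 (purple), with exact 95% intervals as bars. The purple bars reach 74.1% to 88.9% and the grey bars 7.50% to 9.60%.

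Read the other way, 29.8% of the 2044 barcodes with 2 light chains carried 2 heavy chains, from 21.4% in 5xFAD iLN to 36.2% in 5xFAD dCLN. Of the 15918 barcodes with 1 light chain, 0.974% did, from 0.351% in WT iLN to 1.71% in WT dCLN.

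As a yardstick, the light chain numbers of 2 barcodes with 1 heavy chain of the same library were added by arithmetic. Among such sums of 1 or 2 light chains, 1.31% to 3.47% had just 1 light chain, whereas 11.1% to 25.9% of the barcodes with 2 heavy chains did. The measured share was above this value in 6 of 6 libraries, and in each the exact interval lay above it, the lowest lower bound being 4.59% in WT iLN beside 2.83%. Sums of 3 or 4 light chains would be 14.3% to 18% of such pairs, but no deposited barcode had more than 2 light chains. The calculated values assume that every chain of both barcodes is kept, and they have no test. A pair of cells with the same light chain junction would be drawn in 0.426% to 0.459% of cases, calculated from the junctions of barcodes with 1 heavy and 1 light chain.

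Light chain UMIs were higher on barcodes with 2 heavy chains. The median over barcodes with a light chain was 52.7 with 2 heavy chains and 29.5 with 1, averaged over libraries, a difference of 23.2 ± 4.23 UMIs (SD, n = 6, higher in 6 of 6; exact sign-flip p = 0.0312, adjusted 0.0625). Within barcodes of 1 light chain, the pooled medians were 27 UMIs with 2 heavy chains and 28 with 1, and the libraries went both ways, from 20.5 beside 26 in WT dCLN to 37 beside 31 in 5xFAD dCLN. Within barcodes of 2 light chains, they were 58 and 52, and the median was higher with 2 heavy chains in 6 of 6 libraries, from 46 beside 45 in 5xFAD iLN to 65 beside 54 in 5xFAD sCLN. Heavy UMIs were summed over the chains of a barcode. With 1 light chain the 2 heavy chains had a median of 20 UMIs beside 11 for a single heavy chain, and with 2 light chains 24 beside 12. A sum of 2 chains is set above 1 chain by the rule that defines the classes, so no conclusion is drawn from these heavy medians. The lesser light chain held a median of 36.9% of the light UMIs with 2 heavy chains and 37.1% with 1.

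Kappa and lambda chains were found together on 6.35% of barcodes with 2 heavy chains and 0.564% of those with 1, averaged over libraries, a difference of 5.79 ± 1.69 points (SD, n = 6, higher in 6 of 6; exact sign-flip p = 0.0312, adjusted 0.0625). Among barcodes with 2 light chains the classes were close. Kappa with lambda made up 47 of 610 (7.70%, 5.72 to 10.1) with 2 heavy chains and 7.04% (5.77 to 8.49) with 1. Lambda was the light chain of 4.59% of barcodes with 1 heavy and 1 light chain, and 2 light chains drawn at that share would be 1 kappa and 1 lambda in 8.75%.

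Most pairs were unswitched. Of the 753 barcodes with a constant region call for both chains, 503 (66.8%, 63.3 to 70.2) were IgM with IgM, 163 (21.6%, 18.8 to 24.8) IgM with IgD and 25 (3.32%, 2.16 to 4.86) IgD with IgD. A switched chain beside IgM or IgD was found in 51 (6.77%, 5.08 to 8.81), and 11 (1.46%, 0.731 to 2.60) had 2 switched chains. The product of the isotype shares of barcodes with 1 heavy chain, taken within each library, gives 57.2%, 31.3%, 4.57%, 6.84% and 0.137% for these 5 kinds. Pairs of 2 switched chains thus numbered 11 where this product gives 1.03, while pairs with 1 switched chain, taken over all light chain numbers, lay near it. That match pools unlike barcodes: a switched chain was present on 21.1% of those with 1 light chain and 4.99% of those with 2, as given below.

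**Figure D4:**
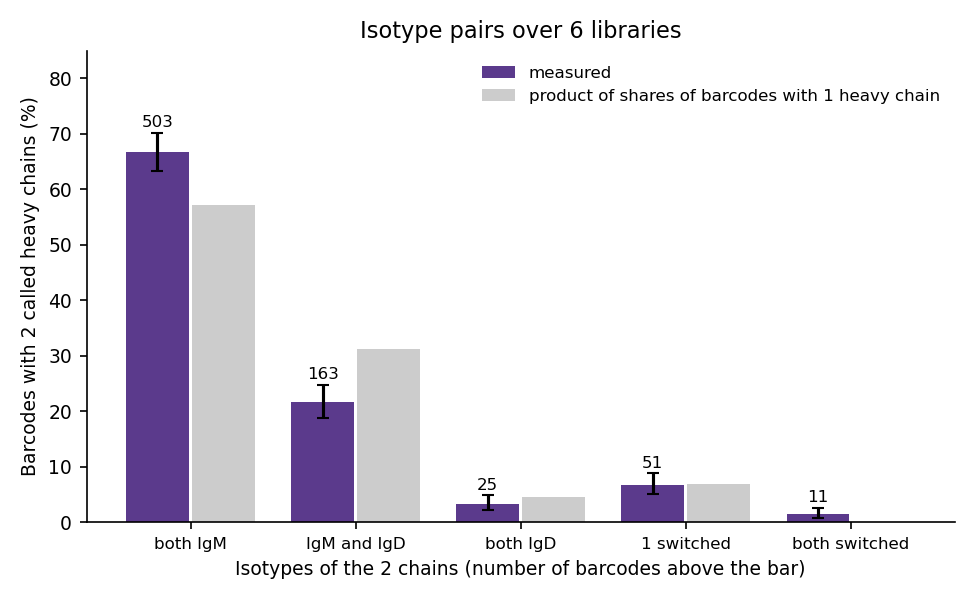
Percent of the 753 barcodes with 2 called heavy chains (vertical axis) by kind of isotype pair, measured (purple, exact 95% intervals, numbers above) and as the product of the isotype shares of barcodes with 1 heavy chain (grey). IgM with IgM reaches 66.8% beside 57.2%, and IgM with IgD 21.6% beside 31.3%.

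The constant region genes follow each other on the minus strand of chromosome 12, with Ighm at chr12:113418558-113422730 and Ighd at chr12:113406604-113416324 (GRCm38). Over both chains, 1220 contigs were IGHM (79.7%) and 224 were IGHD (14.6%). The switched contigs were 24 of IGHG2B, 23 of IGHG2C, 19 of IGHG1, 6 of IGHA and 2 of IGHG3. No IGHE contig was found, which allows up to 0.196% of the 1530 contigs. IGHG2C was the lesser chain 18 times, the greater 3 times and tied 2 times. With ties apart, IGHG1 was the lesser 12 times and the greater 5 times, IGHG2B 14 and 8, IGHA 4 and 1, and IGHD 152 and 51. IGHG3 was each 1 time, and IGHM was the lesser 519 times and the greater 657 times.

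IgD took a smaller share of the unswitched chains on barcodes with 2 heavy chains in 6 of 6 libraries. It was 23.8% beside 27.9% in WT dCLN, 9.93% beside 16.4% in 5xFAD dCLN and 17.7% beside 23.5% in WT sCLN. It was 13.1% beside 19.4% in 5xFAD sCLN, 14.9% beside 21.8% in WT iLN and 8.41% beside 20.5% in 5xFAD iLN. The mean difference was -6.95 ± 2.73 points (SD, n = 6; exact sign-flip p = 0.0312, adjusted 0.0625). It turned to 3.55 points (exact sign-flip p = 0.0312, adjusted 0.0536) when both classes were limited to barcodes with 10 or more summed heavy UMIs. A single chain must reach this limit alone, while 2 chains reach it together, so the classes were not held to the same depth per chain. The IgD call fell with the UMIs of a contig, as given below, so no conclusion is drawn from this turn.

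The IgD call moved strongly with the UMIs of a contig. Among single heavy chains it was made for 59.9% at 1 or 2 UMIs, 51.9% at 3 to 5, 27.1% at 6 to 10, 11.3% at 11 to 20 and 2.90% at 21 or more. Lesser chains at 3 to 5 UMIs were IgD in 34.3% (27.3 to 41.8) and greater chains at 11 to 20 UMIs in 7.04% (4.73 to 10.0), both below the single chains of the same UMI number. At 6 to 10 UMIs lesser chains were IgD in 19.5% (15.1 to 24.4) and greater chains in 14.3% (8.69 to 21.6), also below the single chains. Lesser chains at 11 to 20 UMIs were IgD in 15.3% (10.4 to 21.3), and the single chains in 11.3% (10.6 to 12.1). Greater chains at 1 or 2 UMIs (5 of 6 contigs) and lesser chains at 21 or more (1 of 14) also lay above the single chains. All these shares pool contigs over libraries. In the IgM with IgD pairs IgD was the lesser chain in 128, the greater in 27 and equal in 8.

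Switched chains were 3.99% of the called contigs with 2 heavy chains and 3.00% with 1, averaged over libraries, and this difference of 0.996 ± 1.48 points was within the spread between libraries (n = 6, higher in 5 of 6; exact sign-flip p = 0.219, adjusted 0.375). In the 51 pairs of a switched with an unswitched chain, the switched chain was the lesser in 39, the greater in 9 and equal in 3. Its median was 5 UMIs, beside 13 for its partner. On barcodes with 1 heavy chain, switched chains had a median of 10 UMIs and unswitched chains 11.

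V gene mismatches, the mark of somatic mutation, lay on the switched chain. Of the 51 switched chains in such pairs, 38 (74.5%) differed from the germline V gene at 1% or more of V bases, and 0 of the 51 partners did. Mean V mismatch was 2.65% ± 2.52 (SD, 51 chains) for the switched chains and 0.0133% ± 0.0666 for the partners. Single switched heavy chains had 2.63% ± 2.48, with 68.9% at 1% or more, and single unswitched ones had 0.0236% on average. Over all 765 barcodes, 712 had no chain at that level, 48 had 1 and 5 had both. The share of contigs at that level was 3.02% with 2 heavy chains and 2.60% with 1 (difference 0.421 ± 1.60 points, n = 6; exact sign-flip p = 0.562, adjusted 0.844). This difference was 0.0901 points without WT dCLN, 0.143 without WT sCLN, 0.647 without WT iLN, 0.938 without 5xFAD sCLN, and 0.00625 with the lesser chain at 20% or more of the heavy UMIs.

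Of the 11 barcodes with 2 switched chains, 5 were in WT dCLN, 4 in 5xFAD dCLN, and 1 in each sCLN library. In the iLN libraries 0 of 60 WT and 0 of 53 5xFAD pairs were of this kind, with exact upper bounds of 5.96% and 6.72%. The isotypes were the same in 3, both chains were mutated at 1% or more in 5, at least 1 was in 10, and 5 had 2 light chains. The pair with the most UMIs was also the barcode with the most heavy UMIs of 5xFAD dCLN. It joined an IGHG2B chain of IGHV1-54 with 41 UMIs and 4.14% V mismatch to an IGHA chain of IGHV4-1 with 26 UMIs and 2.03%, on a barcode with 1 light chain, of IGKV10-96. Both heavy junctions of this barcode are printed because they differ in V gene, J gene and length.
IGHV1-54 with IGHJ2: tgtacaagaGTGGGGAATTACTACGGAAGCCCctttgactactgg
IGHV4-1 with IGHJ4: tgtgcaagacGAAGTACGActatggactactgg
The lowest depth was in WT dCLN, where 1 such pair rested on 2 and 1 UMIs (IGHV1-72 and IGHV1-37). Without WT dCLN the count was 6, and without 5xFAD dCLN it was 7.

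Switched chains gathered on the barcodes with 1 light chain, a pattern picked out after its values were seen. A switched chain was present on 32 of 152 barcodes with 2 heavy and 1 light chain (21.1%, 14.9 to 28.4) and on 30 of 601 with 2 heavy and 2 light chains (4.99%, 3.39 to 7.05). On barcodes with 1 heavy chain the shares were 3.20% with 1 light chain and 3.23% with 2. These count 1 chain per barcode, whereas the shares with 2 heavy chains count either of 2, so their levels are not directly comparable. The share with 1 light chain was 21.6% beside 8.90% with 2 in WT dCLN, 22.9% beside 4.42% in 5xFAD dCLN and 26.7% beside 8% in WT sCLN. It was 11.1% beside 1.27% in 5xFAD sCLN, and 16.7% beside 0% in both iLN libraries. The share was higher with 1 light chain in 6 of 6 libraries, but rested on 1 or 2 barcodes in 5xFAD sCLN and both iLN libraries. With 3 or more UMIs required of each heavy contig the shares were 15.2% (9.41 to 22.7) and 4.99% (3.37 to 7.09). Barcodes with 1 light chain also had a lesser heavy chain under 20% of UMIs more often, 28 of 155 (18.1%) beside 72 of 610 (11.8%). Limited to barcodes with a lesser chain of 20% or more, the shares with a switched chain were 15.1% (9.33 to 22.5) with 1 light chain and 5.26% (3.53 to 7.52) with 2. What further part UMI differences have in the result was not tested.

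**Figure D5:**
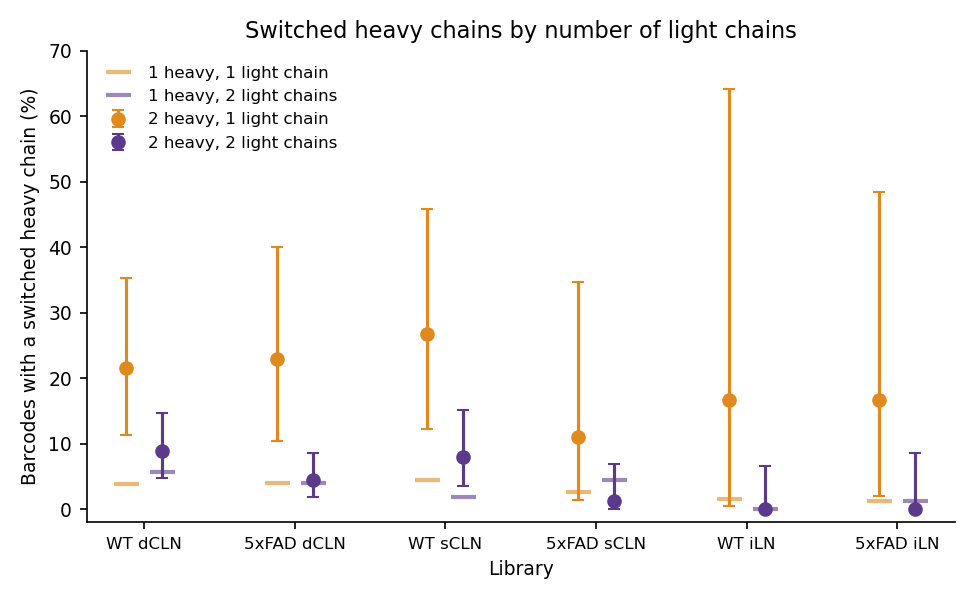
Percent of barcodes with at least 1 switched heavy chain (vertical axis) in each library, for barcodes with 2 heavy chains and 1 (orange points) or 2 (purple points) light chains, with exact 95% intervals, and for barcodes with 1 heavy chain (short lines of the same colours). The orange points run from 11.1% to 26.7% and the purple points from 0% to 8.90%. Points count either of 2 heavy chains and short lines count 1, so their levels are not directly comparable.

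The V genes of a pair met about as often as their frequencies give. Both chains used the same V gene in 25 barcodes (3.27%, 2.13 to 4.79), beside 2.18% from the summed squared V gene shares of barcodes with 1 heavy chain. These 25 include the 3 barcodes of 1 rearrangement. They used the same V family in 277 (36.2%, 32.8 to 39.7; 35.9% by the same arithmetic) and the same J gene in 209 (27.3%, 24.2 to 30.6; 26.2%). There were 563 distinct pairs of V genes, of which 431 occurred once. IGHV1-26 with IGHV1-81, and IGHV1-26 with IGHV9-3, were found on 6 barcodes each. IGHV1-18 with IGHV9-3, IGHV1-26 with IGHV14-4, and IGHV1-72 with IGHV3-6 were found on 5 each, and in these 5 most frequent V gene pairs no pair of junctions was found more than once.

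V gene usage was compared between the classes with the library as a block. None of the 92 genes tested was called higher or lower (0%) by edgeR's quasi-likelihood test at a Benjamini-Hochberg adjusted p of 0.05, 6 had an unadjusted p below 0.05, and DESeq2 called 0 with 2 below 0.05. Among genes with 40 or more contigs, the lowest was IGHV1-31, with 1 contig of 1530 (0.0654%) beside 49 (0.282%) and a log2 fold change of -2.02 ± 1.20 (SE; adjusted p = 0.752 by edgeR). Next was IGHV1-52, with 12 contigs (0.784%) beside 278 (1.60%) and a log2 fold change of -1.05 ± 0.413 (adjusted p = 0.452 by edgeR). It was lower in 6 of 6 libraries, as were IGHV1-50, IGHV1-39, the joint call IGHV5-6 or IGHV5-6-1, IGHV2-6 and IGHV2-4. No gene tested was higher in 6 of 6. The third was IGHV14-1 with 0.392% beside 0.759%. The highest were IGHV9-2 with 0.784% beside 0.46%, IGHV14-4 with 2.22% beside 1.31% (log2 fold change 0.77 ± 0.315, adjusted p = 0.452 by edgeR), and IGHV1-42 with 1.37% beside 0.938%. The median junction length was 42 bases in both classes of every library.

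Some of the heavy chains were also seen alone. In 50 barcodes, 1 of the 2 heavy junctions was on a barcode with 1 heavy chain of the same library, and in none were both. WT dCLN held 30 of them, 5xFAD dCLN 9, WT sCLN and WT iLN 4 each, 5xFAD sCLN 2 and 5xFAD iLN 1. Per contig this is 7.46% in WT dCLN and 0.893% to 3.17% in the other libraries. Of the barcodes with 1 heavy chain, 14.8% in WT dCLN and 5.55% to 10.3% in the other libraries had their junction on another barcode with 1 heavy chain, a higher share than per contig of the pairs in 6 of 6 libraries, with no test of this difference. The chain seen alone was the greater in 27 and the lesser in 23, with 7 ties among them. Measured the same way, 17 contigs matched a barcode with 1 heavy chain in the other nodes of the same genotype (2 libraries each), and 6 matched one of the other genotype (3 libraries each).

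These barcodes tended to share a light chain with the barcode on which the heavy chain stood alone. A light junction was shared in 42 of the 48 cases in which that barcode had a light chain. With 2 light chains it was shared in 27 of these 30, and in 14 of those another light chain was left over. With 1 light chain it was shared in 15 of 18. The barcode with 1 heavy chain had 100 or more UMIs in 2 of the 50 cases, and the median of its highest UMI number was 9. Over all contigs, a junction found on any other barcode of the library made up 8.93% with 2 heavy chains and 8.85% with 1, averaged over libraries (difference 0.0750 ± 3.54 points, n = 6, higher in 3 of 6; exact sign-flip p = 1, adjusted 1). The difference was 3.40 points with 10 or more summed heavy UMIs per barcode (exact sign-flip p = 0.0312, adjusted 0.0536). That limit does not hold the classes to the same depth per chain. It was 2.35 points with identical receptor sets counted once (exact sign-flip p = 0.0312, adjusted 0.0536). This setting removes barcodes whose whole set recurs, but keeps a pair that shares 1 junction with a single heavy chain. It thus acts on the measure itself and unequally on the classes, and no conclusion is drawn from it.

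Whole pairs also recurred. In all, 21 pairs of heavy junctions were found on more than 1 barcode of a library, 43 barcodes together (5.62%). The pair printed first above was on 3 barcodes and each of the others on 2. All 21 shared at least 1 light junction between their barcodes, 18 had identical light chains and 16 had 2 light chains in common. The same chain was the greater on each barcode in 13 of 21, the other chain was in 5, and 3 had a tie on a barcode. In 13 the isotypes were the same throughout. The cell barcodes differed at 7 to 15 of their 16 bases (median 12). No heavy pair occurred in more than 1 library.

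An example with 4 chains in common comes from 5xFAD sCLN and is printed because it joined a kappa to a lambda chain.
IGHV8-12 with IGHJ1: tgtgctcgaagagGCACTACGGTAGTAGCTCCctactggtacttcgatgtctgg
IGHV8-5 with IGHJ3: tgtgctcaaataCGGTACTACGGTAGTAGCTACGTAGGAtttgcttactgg
IGKV10-96 with IGKJ2: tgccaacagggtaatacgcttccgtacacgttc
IGLV2 with IGLJ2: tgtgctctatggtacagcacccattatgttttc
On the first barcode the IGHV8-12 chain had 38 UMIs, the IGHV8-5 chain 5, the kappa chain 19 and the lambda chain 27. On the second they had 27, 7, 28 and 42. The order of the heavy chains and of the light chains was the same on both.

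Recurrence can be set beside that of single heavy chains. A barcode with the same heavy junctions and a shared light junction was found elsewhere in the library for 5.62% of barcodes with 2 heavy chains and 8.27% of those with 1. The share was 5.97% beside 13.6% in WT dCLN, 2.76% beside 5.20% in 5xFAD dCLN and 4.62% beside 9.85% in WT sCLN. It was 13.3% beside 7.39% in 5xFAD sCLN, 3.17% beside 5.27% in WT iLN and 7.14% beside 6.98% in 5xFAD iLN. The direction was not the same in all libraries: it was lower with 2 heavy chains in 4 and higher in 2. In libraries of the other genotype the same search found 0 barcodes with 2 heavy chains and 9 with 1. With every identical receptor set of a library counted once, the share of barcodes with 2 heavy chains was 5.87% in WT dCLN, 5.36% in 5xFAD dCLN, 3.74% in WT sCLN, 3.89% in 5xFAD sCLN, 2.81% in WT iLN and 2.58% in 5xFAD iLN.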

How the data were processed

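V(D)J libraries came from a Chromium 5' single-cell kit, with hashtagged samples of over 87% viability combined (per the labels' protocols). The submitters' processing notes list the build mm10, Seurat 4.1.0 and Cell Ranger 6.0.1 without their roles, and the germline set is not given in the sources used here. The tables list 1 assembled contig per line. The deposited UMI and read columns hold counts of each contig, per the file headers. V identity is a fraction deposited by the authors, per the file headers, and V mismatch is its complement in percent. Junction lengths were deposited as numbers of bases. Any hashtag or gene expression data and doublet calls were not used here.

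Contigs were counted per barcode and library, and contigs with 1 UMI were kept. Classes were compared over 6 libraries by an exact two-sided sign-flip test with Benjamini-Hochberg adjustment over 12 measures, genotypes over 3 nodes. These p-values measure the spread between libraries, not animals. V genes with 10 or more contigs were tested with edgeR 4.0.16 (DESeq2 1.42.0 as an alternative). Intervals are exact Clopper-Pearson at 95%, a count of 0 was given a limit of 3 counts, and both cover counting error only. Gene positions came from the GENCODE annotation of GRCm38, which held 89 of 90 names sought. Named V genes were those called, otherwise the 3 highest and 3 lowest folds among genes with 40 or more contigs. Named pairs and barcodes were the 5 most frequent V pairs, the most recurrent and most alike junction pairs, and each library's barcode with most heavy UMIs. The members and lists were chosen with earlier results of these data known. On simulated data, 26 of 26 barcode values came back as set. In the simulated V gene comparison over 90 genes, 9 of 10 genes raised 2-fold and 10 of 10 raised 4-fold were recovered, with 0 false calls. The raised genes were drawn only from those with many contigs, and the simulated counts had no added spread between libraries. It thus does not show what would be recovered among genes with few contigs, among lowered genes or at the spread of the data. Python 3.11.15, SciPy 1.17.1 and R 4.3.3 were used.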

Additional observations from a re-analysis of the deposited data

Results flagged for a closer look

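The pooled library of unresolved node and genotype, left out of the comparisons, also held barcodes with 2 heavy chains. They numbered 145 of 2633 barcodes with a heavy chain, or 5.51% (4.67 to 6.45). Of these, 80.7% (73.3 to 86.8) had 2 light chains, beside 12.1% of its barcodes with 1 heavy chain. The lesser chain held a median of 30.8% of the heavy UMIs, 33 barcodes carried a switched chain and 4 carried 2. Switched chains were 12.8% of called contigs with 2 heavy chains and 6.93% with 1 in this library, a difference with no replicate check. One pair of heavy junctions recurred, on 3 barcodes.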

How the results depend on the processing

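The excess of barcodes with 2 light chains kept its direction in every alternative run and in every library left out (70.5 to 73.7 points), and adding the mixed library gave 71.7 points (exact sign-flip p = 0.0156, adjusted 0.0312). This p is the smallest that 7 libraries can give. The mixed library pools the same nodes and genotypes, and whether it is an independent replicate is not resolved. That seventh library also took the adjusted p under 0.05, which 6 libraries could not reach, for several other measures. These were no light chain (-0.996 points), 1 light chain (-70.7), kappa with lambda (6.11), light UMIs (22.4) and IgD (-7.28). For no light chain, a filter that acts on barcodes with 2 heavy chains is not resolved, as given above. IgD turned to 3.55 points with 10 or more heavy UMIs per barcode, a limit on the sum of its chains that acts unequally on the classes. The difference in shared junctions changed sign with the lesser chain at 20% or more (-0.490 points), with V and J matched as well (-0.0629) and with junctions of 40 bases or more (-0.697). It was 3.40 with 10 or more heavy UMIs and 2.35 with receptor sets counted once, settings that act unequally on the classes. It ranged from -1.15 to 0.941 with 1 library left out. Contigs without a constant region call turned to 0.224 and 0.560 points with 2 and 3 UMIs, 1.00 with 10 heavy UMIs and 0.00546 with receptor sets counted once. Reads per UMI turned to 1.73 with 10 heavy UMIs and 0.497 with the mixed library. The genotype difference in the share of 2 heavy chains turned to 0.0754 points of all barcodes, and to 0.0287 and 0.141 with 2 and 3 UMIs, and was -0.276 to 0.0786 without 1 node. Barcodes with 2 switched chains numbered 6 to 11 with 1 library left out. Switched contigs differed by 0.559 to 1.37 points in the same sets of libraries. V genes gave 0 calls in every fit, including no block. The cause of these changes was not tested. Counting receptor sets once, and the settings on switched chains by light number, were chosen after seeing the data. Having 2 or more heavy chains gave the same barcodes as exactly 2. With 5 libraries the smallest exact p is 0.0625, so values with 1 library left out had no test. Depth limits the lesser chain, which had 2 or fewer UMIs in 47 barcodes.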
